A study of Mus musculus with 9 samples.

Results

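Described here are 6 genes of the receptor system for interleukin 27 (IL-27) and its relatives, in tumour CD8+ T cells from mice without and with the IL-27 receptor. They are Il27ra, Il6st, Il6ra, Ebi3, Il12rb1 and Il12rb2, chosen by symbol, and all 6 were found among the 23366 gene symbols of the table. The IL27ra KO group had 4 bulk RNA-seq libraries and the WT group had 5, all from C57BL/6 mice that carried B16F10 tumours, a transplantable mouse melanoma. The values are FPKM, fragment numbers corrected for transcript length and library size, scaled between libraries by TMM, a trimmed mean of gene ratios. The IL27ra KO label does not say which part of Il27ra was disrupted, and the sources used here give no age, sex or method of cell sorting. The labels do not tie the libraries of a group to separate animals, so p-values reflect only how these libraries vary, in part perhaps for technical reasons.

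IL-27 is a cytokine made mainly by myeloid cells from 2 subunits, p28 (gene Il27) and EBI3. Its receptor pairs IL-27Rα, encoded by Il27ra, with gp130, encoded by Il6st, and signals through JAK kinases to STAT factors, STAT3 among them. The same gp130 chain serves interleukin 6 (IL-6), whose own binding chain is Il6ra, and the leukaemia inhibitory factor and oncostatin M receptors. Interleukin 12 (IL-12), a relative of IL-27 that drives interferon gamma in CD8+ T cells through STAT4, binds a receptor of Il12rb1 and Il12rb2. Il12rb1 is also a chain of the interleukin 23 receptor.

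The promoters of 4 of the 6 genes, Il6st, Il6ra, Ebi3 and Il12rb2, were matched by symbol in RefSeq sequence of build GRCm38.p6. Shown are the 250 bases before the start of the chains of the IL-6 receptor, of which Il6ra differed between the groups and Il6st did not pass the test, and of Il12rb2, for which IL27ra KO replicate 4 stood apart. Il6ra lies at chr3:89913197-89913446, minus strand, Il6st at chr13:112463820-112464069, plus strand, and Il12rb2 at chr6:67376189-67376438, minus strand. Capitals mark matches, on either strand, to the STAT motifs TTCNNNGAA and TTCNNGAA, the CCAAT box (CCAAT), the GC box (GGGCGG) and the E-box (CACGTG).
Il6ra: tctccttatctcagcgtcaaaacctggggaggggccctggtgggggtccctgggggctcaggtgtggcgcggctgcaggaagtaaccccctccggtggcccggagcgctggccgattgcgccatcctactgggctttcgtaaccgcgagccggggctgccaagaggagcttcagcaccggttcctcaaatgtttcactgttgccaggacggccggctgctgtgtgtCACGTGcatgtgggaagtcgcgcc
Il6st: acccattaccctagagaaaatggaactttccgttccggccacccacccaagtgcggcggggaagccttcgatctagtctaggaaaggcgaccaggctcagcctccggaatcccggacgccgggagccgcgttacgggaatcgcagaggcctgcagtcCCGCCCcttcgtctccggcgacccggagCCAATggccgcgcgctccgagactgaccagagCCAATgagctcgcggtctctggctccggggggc
Il12rb2: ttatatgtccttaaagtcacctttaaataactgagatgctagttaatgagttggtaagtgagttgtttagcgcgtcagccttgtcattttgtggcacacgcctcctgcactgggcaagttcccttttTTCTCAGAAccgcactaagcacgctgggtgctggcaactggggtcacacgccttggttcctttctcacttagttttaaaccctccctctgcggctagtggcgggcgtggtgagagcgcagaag
Il6ra held 1 E-box, found in 6.02% of all 32851 promoters of that table. Il6st held 2 CCAAT boxes and 1 GC box, which are present in 33.8% and 32.7% of promoters. Il12rb2 held 1 match to TTCNNNGAA, present in 7.02% of promoters. Ebi3, not printed, held TTCTAGAA, a match to TTCNNGAA, which is present in 7.17%. No match to either STAT motif lay in the Il6ra or Il6st windows. The matches describe the letters of these windows and are not binding sites.

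The libraries were of modest and uneven depth, and they differed in the RNA of other cells. The spacing of low FPKM values implied 2510000 to 3840000 fragments per IL27ra KO library and 1730000 to 4140000 per WT library. The ribosomal precursor Rn45s held 25.2% to 29.3% of the summed FPKM in IL27ra KO and 23.9% to 53.8% in WT. The highest shares were in WT replicates 3 (53.8%) and 4 (50.8%). Of 10374 genes that averaged 1 FPKM or more, 440 differed between IL27ra KO and WT, 325 being higher and 115 lower (limma, Benjamini-Hochberg adjusted p below 0.05). All 20 tested genes of the macrophage and monocyte list (22 listed) were higher in IL27ra KO, and the list had a mean log2 level of 4.16 to 5.77 in IL27ra KO and 1.60 to 3.33 in WT. Of its defining markers, Csf1r was above 0 in every library, and Ms4a7 and Trem2 were at 0 in 2 and 1 of the 5 WT libraries and in none of the IL27ra KO libraries. Of 15 CD8 T cell identity genes 2 passed as lower (Cd8a and Cd3e), with list levels of 5.05 to 6.38 in IL27ra KO and 6.07 to 6.74 in WT, and IL27ra KO replicate 4 held the 6.38. The log2 differences of all 15 were negative, from -1.20 to -0.19, with a median of -0.73 against 0.02 over all genes tested. Of 6 tested dendritic cell genes (10 listed) 4 were higher (Itgax, Cd209a, H2-Ab1 and Cd74), with list levels of 4.55 to 5.62 in IL27ra KO and 2.47 to 4.23 in WT. Zbtb46 and Ccr7 did not pass, with log2 differences of -0.25 and 0.04 (limma, adjusted p = 0.811 and 0.961). Flt3, Xcr1, Clec9a and Batf3 were below the filter, with at most 2.06 FPKM in any library. Of 6 tested CD4 and regulatory T cell genes (7 listed) 1 was higher (Cd40lg) and 2 were lower (Ctla4 and Ikzf2), with list levels of 1.67 to 2.00 in IL27ra KO and 2.10 to 2.64 in WT. Foxp3, Il2ra and Zbtb7b did not pass (limma, adjusted p = 0.369, 0.110 and 0.157). Cd4 was at most 0.13 FPKM in IL27ra KO and 0.45 FPKM in WT. Of 10 melanoma genes 1 was lower, with list levels of 5.28 to 6.33 in IL27ra KO and 4.65 to 6.35 in WT. That gene was Kit, which averaged 0.71 FPKM in IL27ra KO and 4.64 FPKM in WT. The other 9 did not pass, and their log2 differences were all positive, from 0.16 (Tyr) to 1.52 (Mitf). None of the tested neutrophil (2 of 8), B cell (1 of 8) or NK cell (5 of 8) genes passed, and their list levels were 1.97 to 2.69, 0.73 to 2.12 and 2.01 to 3.13 in IL27ra KO and 1.26 to 2.09, 0.26 to 1.28 and 1.80 to 2.74 in WT. The granule gene Mpo and the B cell gene Ms4a1 were listed at 0 in all 9 libraries. In bulk libraries fewer cells of a type and less RNA per cell cannot be told apart.

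Il27ra, the targeted gene, had 4.09, 6.50, 5.62 and 7.80 FPKM in IL27ra KO replicates 1 to 4, against 25.7, 5.14, 15.2, 14.4 and 15.8 FPKM in the libraries labelled WT replicates 1 to 5. The 4 IL27ra KO libraries lay below 4 of the 5 WT libraries, while the library labelled WT replicate 2 lay inside the IL27ra KO range, so the groups overlapped and that library went against its label for this gene. Among the pathway genes that passed, given below, that library lay inside the IL27ra KO range for Lifr too. For Osm, Maf, Stat3 and Prdm1 it lay outside that range. Group means were 6.00 ± 1.56 FPKM in IL27ra KO (SD, n = 4) and 15.3 ± 7.30 FPKM in WT (SD, n = 5). The difference was -1.10 on the log2(FPKM + 1) scale (SE 0.34, 95% interval -1.83 to -0.37), and it did not pass across all genes (limma, adjusted p = 0.0996). The exact permutation test, two-sided, gave p = 0.0397 for this gene alone, where 0.00794 is the smallest possible. Leaving out that library gave -1.42, which passed (limma, adjusted p = 0.00349). Il27ra RNA was present in every IL27ra KO library. These libraries also held tumour RNA (Pmel at 134 to 343 FPKM), and the transplanted B16F10 cells do not carry the mouse's genotype. Whether part of the Il27ra RNA came from tumour cells was not tested. Taking the protein-coding transcript of 2664 bases (GENCODE release M21), the 4 IL27ra KO values correspond to about 42, 59, 38 and 71 fragments, and the 5 WT values to about 237, 31, 70, 89 and 173 fragments. A gene-level value sums over the transcript and cannot show whether the remaining RNA spans the disrupted part. Placed among the 10374 tested genes of its own library, Il27ra stood at the 36.7th to 60.8th percentile in IL27ra KO and at the 79.3rd to 88.5th in WT, except the library labelled WT replicate 2 at the 51.1st.

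**Figure D1:**
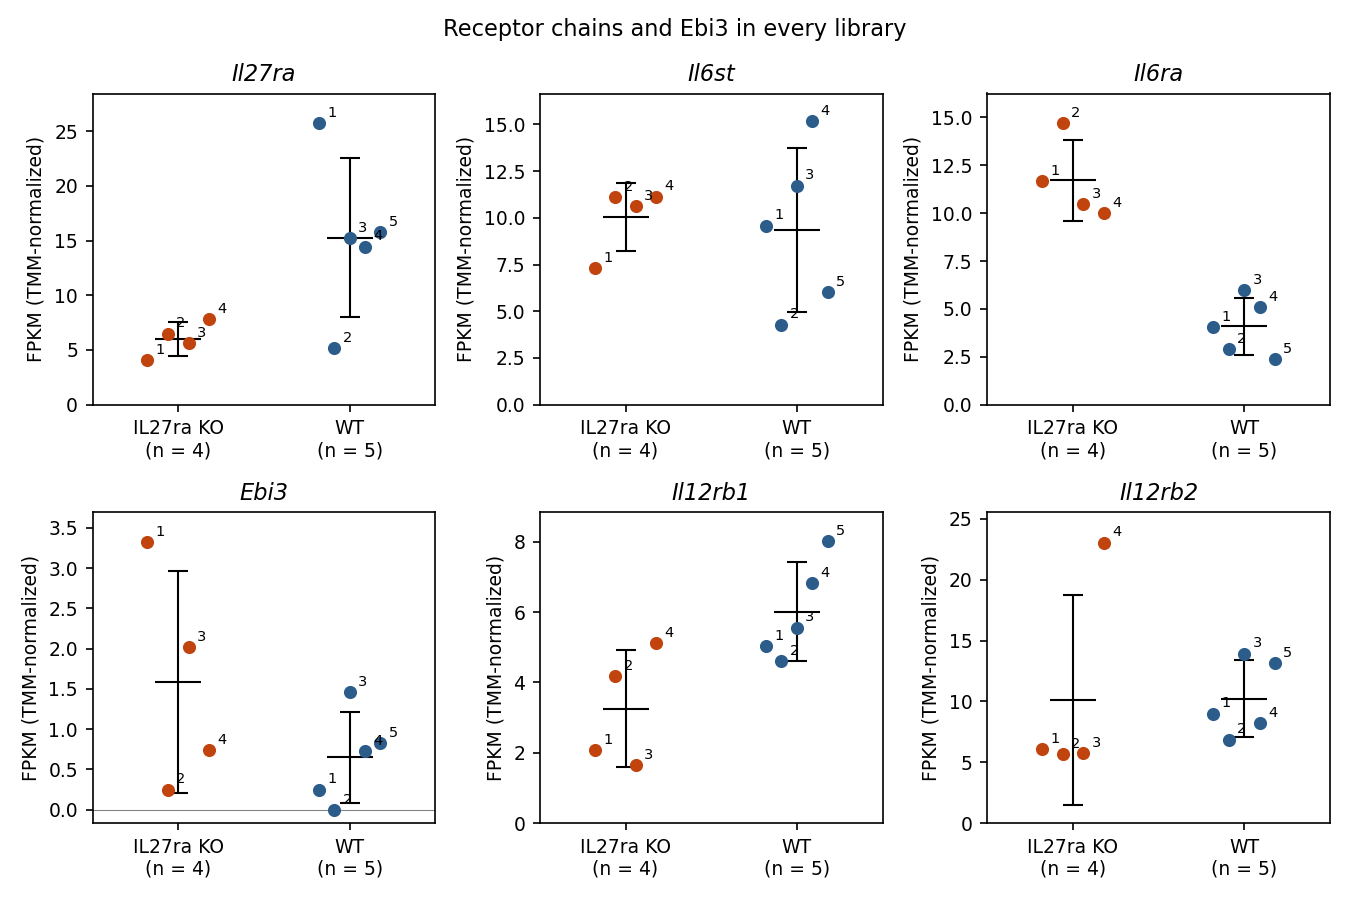
FPKM of the 6 genes in every library, IL27ra KO (4 points) left and WT (5 points) right, with replicate numbers beside the points, means as horizontal marks and SD as error bars. Il6ra is the gene whose groups do not overlap, with 9.99 FPKM as the lowest IL27ra KO value and 5.98 FPKM as the highest WT value.

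Il6st, the gp130 chain shared by the IL-27, IL-6 and oncostatin M receptors, did not follow Il27ra. It had 7.32, 11.1, 10.6 and 11.1 FPKM in IL27ra KO replicates 1 to 4, against 9.59, 4.28, 11.7, 15.2 and 6.01 FPKM in WT replicates 1 to 5. The IL27ra KO values all lay within the WT range. On the log2 scale IL27ra KO minus WT came to 0.19 (SE 0.30, 95% interval -0.45 to 0.83; limma, adjusted p = 0.843; exact permutation p = 0.603). The sign of that small difference rested on the library labelled WT replicate 2, which had the lowest Il6st value, and without it the difference was -0.03.

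Il6ra, the chain that binds IL-6, rose in the IL27ra KO libraries. It had 11.7, 14.7, 10.5 and 9.99 FPKM in IL27ra KO replicates 1 to 4, against 4.06, 2.90, 5.98, 5.10 and 2.39 FPKM in WT replicates 1 to 5. Every IL27ra KO library was above every WT library. The mean was 11.7 ± 2.12 FPKM in IL27ra KO (SD, n = 4) and 4.09 ± 1.49 FPKM in WT (SD, n = 5), a ratio of 2.87. On the log2 scale IL27ra KO exceeded WT by 1.36 (SE 0.23, 95% interval 0.86 to 1.86; limma, adjusted p = 0.00450; exact permutation p = 0.00794, the smallest possible). It was the only one of the 6 genes that passed, and the only one whose groups did not overlap. Over all genes tested, 4.24% passed (3.13% as higher and 1.11% as lower), and the groups did not overlap for 6.73% (4.26% higher and 2.47% lower in IL27ra KO). Its percentile among the tested genes, a measure that does not depend on the scaling of the library, was 68.7 to 78.5 in IL27ra KO and 23.9 to 52.6 in WT.

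The rise of Il6ra was present in each way of leaving out a library, from 1.23 to 1.49 log2 units (limma, adjusted p = 0.00423 to 0.0239). Macrophages and monocytes also make the IL-6 receptor, and their marker level was higher in all 4 IL27ra KO libraries than in any WT library. Within the IL27ra KO group the highest Il6ra value, 14.7 FPKM in replicate 2, came with a macrophage level of 5.27, between those of replicates 1 and 3 (5.62 and 5.77) and of replicate 4 (4.16). The lowest IL27ra KO value, 9.99 FPKM, was in replicate 4, which had the lowest macrophage level of that group. Within WT, Il6ra was highest in replicate 3, at 5.98 FPKM, where the macrophage level was 1.62, and it was 2.90 FPKM in the library labelled WT replicate 2, which had the highest WT level, 3.33. With the macrophage level as a covariate the difference was 1.96 log2 units with a wider error (SE 0.51), short of the threshold (limma, adjusted p = 0.184), in a fit where the covariate runs with the genotype and 7 genes passed in all. Macrophage RNA and genotype cannot be told apart here, because the lowest IL27ra KO level (4.16) lay above the highest WT level (3.33).

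**Figure D2:**
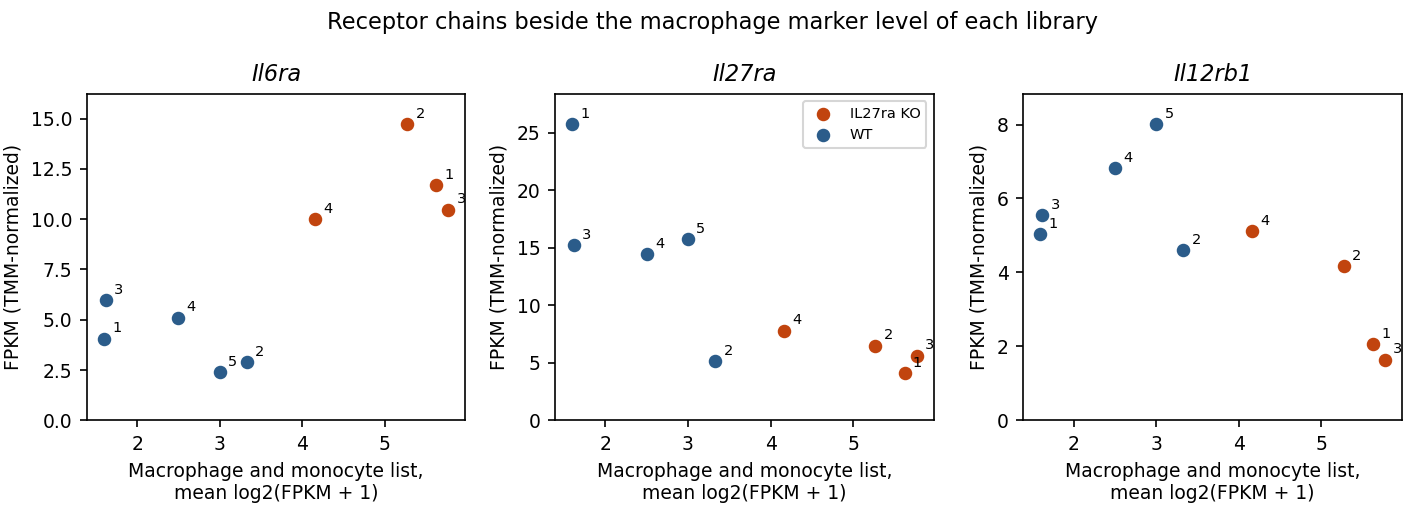
FPKM of Il6ra, Il27ra and Il12rb1 (vertical axes) against the mean log2(FPKM + 1) of the macrophage and monocyte list (horizontal axes), 1 point a library, IL27ra KO in red and WT in blue, with replicate numbers. The 4 IL27ra KO libraries lie at levels of 4.16 to 5.77 and the 5 WT libraries at 1.60 to 3.33, so that the level runs with the genotype.

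Ebi3, the ligand subunit that pairs with p28 in IL-27 and with p35 in interleukin 35, was at the edge of detection. It had 3.32, 0.25, 2.02 and 0.74 FPKM in IL27ra KO replicates 1 to 4, against 0.25, 0, 1.46, 0.73 and 0.83 FPKM in WT replicates 1 to 5. With 1 annotated transcript of 1154 bases, these values correspond to about 15, 1, 6 and 3 fragments in the 4 IL27ra KO libraries, and 1, 0, 3, 2 and 4 in the 5 WT libraries. The groups overlapped, and the 2 libraries with the most fragments, IL27ra KO replicates 1 and 3, also had the highest macrophage levels, a link that was not tested. The difference was 0.55 log2 units (SE 0.37, 95% interval -0.24 to 1.34; limma, adjusted p = 0.550; exact permutation p = 0.238). At this depth a library with 0 fragments is not evidence that the gene is silent.

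Il12rb1, the chain common to the IL-12 and interleukin 23 receptors, had 2.07, 4.18, 1.64 and 5.11 FPKM in IL27ra KO replicates 1 to 4, against 5.03, 4.60, 5.56, 6.83 and 8.02 FPKM in WT replicates 1 to 5. Replicates 1, 2 and 3 of IL27ra KO lay below every WT library, and replicate 4 lay inside the WT range. The mean was 3.25 ± 1.66 FPKM in IL27ra KO (SD, n = 4) and 6.01 ± 1.40 FPKM in WT (SD, n = 5). The difference was -0.79 log2 units (SE 0.26, 95% interval -1.35 to -0.22) and did not pass across all genes (limma, adjusted p = 0.136; exact permutation p = 0.0238). Without IL27ra KO replicate 4 it was -0.99 and passed (limma, adjusted p = 0.0417). The CD8 T cell identity level was 5.05 in IL27ra KO replicate 1, 5.50 in replicate 2, 5.32 in replicate 3 and 6.38 in replicate 4, so that the 2 libraries with the lowest Il12rb1 also had the lowest identity level, and the part of this in the difference was not tested.

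Il12rb2, the signalling chain of the IL-12 receptor, had 6.06, 5.66, 5.74 and 23.1 FPKM in IL27ra KO replicates 1 to 4, against 9.01, 6.87, 13.9, 8.24 and 13.2 FPKM in WT replicates 1 to 5. Replicates 1, 2 and 3 of IL27ra KO lay between 5.66 and 6.06 FPKM, below every WT library, whereas replicate 4 had the highest value of all 9. The group means, 10.1 ± 8.62 FPKM in IL27ra KO (SD, n = 4) and 10.2 ± 3.13 FPKM in WT (SD, n = 5), were therefore close while most single values were not. The difference was -0.22 log2 units (SE 0.36, 95% interval -0.99 to 0.55; limma, adjusted p = 0.848; exact permutation p = 0.667). Leaving out IL27ra KO replicate 4 gave -0.68 (limma, adjusted p = 0.136), and leaving out the library labelled WT replicate 2 as well gave -0.80, which passed (limma, adjusted p = 0.0335). That last choice was made after the values had been seen.

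**Figure D3:**
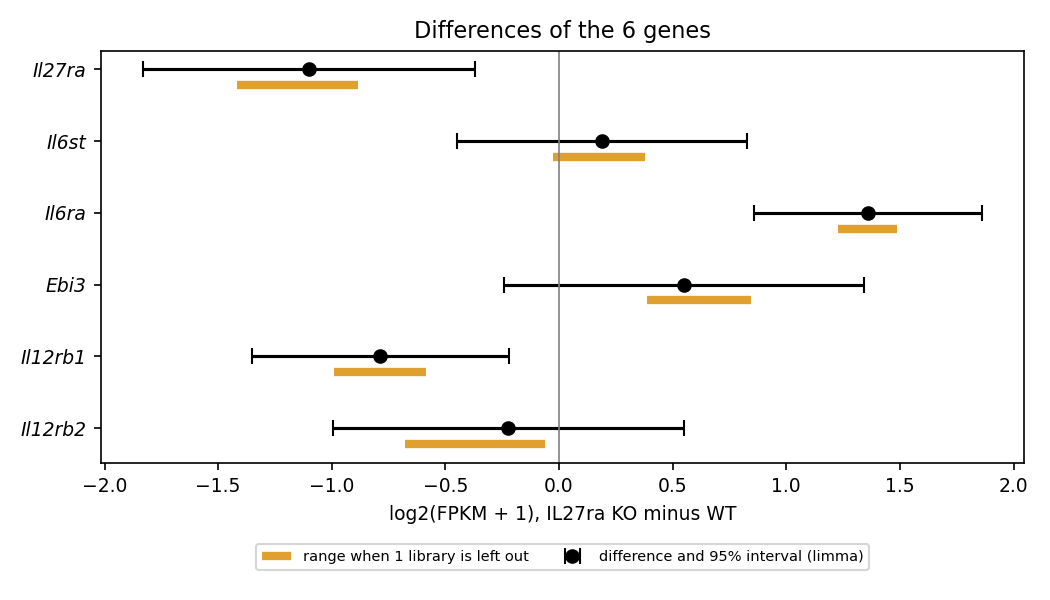
Difference of each gene on the log2(FPKM + 1) scale, IL27ra KO minus WT (horizontal axis), as a point with the 95% interval of the limma fit, with a yellow bar for the range when 1 of the 9 libraries is left out (for Ebi3, the 7 such fits in which it passed the filter). The Il6ra bar runs from 1.23 to 1.49, and the Il6st bar crosses 0.

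The order of the levels differed between the groups. In IL27ra KO, by mean FPKM, it ran Il6ra (11.7), Il12rb2 (10.1), Il6st (10.05), Il27ra (6.00), Il12rb1 (3.25) and Ebi3 (1.58), and each gene's range overlapped that of its neighbour in this order. The place of Il12rb2 there rests on replicate 4, since its median, 5.9 FPKM, was below those of Il6st (10.9) and Il27ra (6.06). In WT it ran Il27ra (15.3), Il12rb2 (10.2), Il6st (9.35), Il12rb1 (6.01), Il6ra (4.09) and Ebi3 (0.654). There the ranges of neighbours overlapped too, other than that of Ebi3, which was below Il6ra in each library. Il27ra thus stood first in WT and Il6ra first in IL27ra KO, where every Il6ra value exceeded every Il27ra value.

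Ratios between the chains of 1 receptor, taken within a library, do not depend on the scaling of the library except through the pseudocount. The ratio of Il27ra to Il6st FPKM, the chains of the IL-27 receptor, was 0.559, 0.585, 0.530 and 0.700 in IL27ra KO replicates 1 to 4, against 2.68, 1.201, 1.30, 0.951 and 2.63 in WT replicates 1 to 5. The groups did not overlap in this ratio, and the library labelled WT replicate 2, whose Il27ra level was that of an IL27ra KO library, had a ratio inside the WT range. Its Il6st, at 4.28 FPKM, was the lowest of all libraries. The ratio of Il6ra to Il6st, the chains of the IL-6 receptor, was 1.60, 1.32, 0.987 and 0.897 in IL27ra KO replicates 1 to 4, against 0.423, 0.678, 0.510, 0.336 and 0.398 in WT replicates 1 to 5, again without overlap. On the log2(FPKM + 1) scale the mean ratios differed by -1.29 for the IL-27 receptor and by 1.17 for the IL-6 receptor. The ratio of Il12rb2 to Il12rb1 was 2.93, 1.35, 3.5 and 4.51 in IL27ra KO replicates 1 to 4, against 1.79, 1.49, 2.51, 1.21 and 1.64 in WT replicates 1 to 5, and the groups overlapped. These ratios are descriptions and were not tested, because the Il27ra and Il6ra values within them are those compared above. How often the groups do not overlap in the ratios of other gene pairs was not computed.

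**Figure D4:**
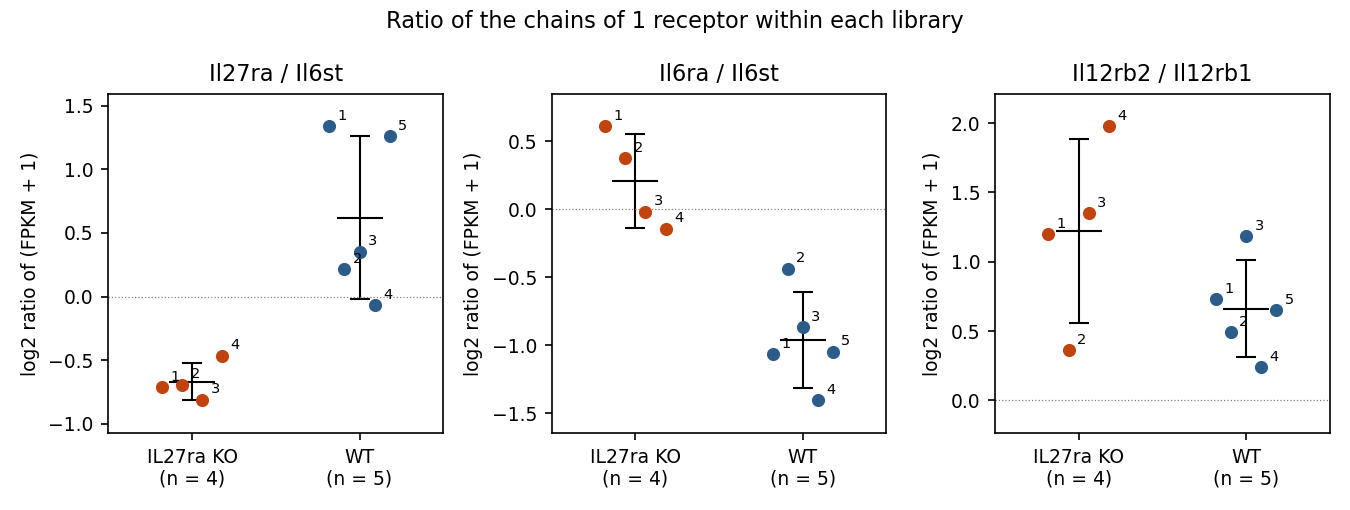
Log2 ratio of (FPKM + 1) between the chains of the IL-27 receptor, the IL-6 receptor and the IL-12 receptor in each library, IL27ra KO left and WT right, with means as horizontal marks, SD as error bars and replicate numbers beside the points. The IL27ra KO libraries lie below all WT libraries for Il27ra over Il6st and above all of them for Il6ra over Il6st, and the groups overlap for Il12rb2 over Il12rb1.

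Among the other ligands of these receptors, 2 of 13 listed genes were abundant enough to test. Osm, which encodes oncostatin M, rose, with 9.10, 9.51, 28.9 and 7.55 FPKM in IL27ra KO replicates 1 to 4, against 1.82, 2.08, 0.30, 2.68 and 1.78 FPKM in WT replicates 1 to 5. The groups did not overlap, and the log2 difference was 2.31 (SE 0.37; limma, adjusted p = 0.00288). Its highest value was in IL27ra KO replicate 3, with a macrophage level of 5.77, while replicates 1, 2 and 4 had 9.10, 9.51 and 7.55 FPKM at levels of 5.62, 5.27 and 4.16, and the part of these levels in the difference cannot be told apart from genotype. Clcf1, a ligand of the ciliary neurotrophic factor receptor, averaged 4.12 ± 1.40 FPKM in IL27ra KO (SD, n = 4) and 4.48 ± 1.65 FPKM in WT (SD, n = 5), with a log2 difference of -0.09 (adjusted p = 0.922). Cntf, which encodes ciliary neurotrophic factor, was below the filter, with at most 1.21 FPKM in IL27ra KO and 1.01 FPKM in WT. Il27, the p28 subunit, had 0.37 and 0.42 FPKM in IL27ra KO replicates 1 and 2 and was listed at 0 in the other 7 libraries. Il6 had 0.95, 0.81, 0.36 and 0 FPKM in IL27ra KO replicates 1 to 4 and was listed at 0 in all 5 WT libraries. Il12a was listed at 0 in all 9 libraries.

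Of 9 further receptor chains, 4 were tested, of which 1 rose and 3 did not pass, with a median log2 difference of 0.85 against 0.02 over all genes tested. Of all genes tested, 3.13% passed as higher. Lifr, the leukaemia inhibitory factor receptor, which pairs with gp130, had 17.5, 19.0, 14.2 and 7.77 FPKM in IL27ra KO replicates 1 to 4, against 3.14, 9.46, 1.83, 6.18 and 3.10 FPKM in WT replicates 1 to 5. IL27ra KO replicate 4 was below the library labelled WT replicate 2, and the other IL27ra KO libraries were above every WT library. The log2 difference was 1.53 (SE 0.36; limma, adjusted p = 0.0257). Leaving out 1 library at a time ended the call in 6 of 9 fits (adjusted p up to 0.0988, when IL27ra KO replicate 1 was absent), as did using no filter on low values (adjusted p = 0.0731). The difference was -0.32 with the macrophage level as a covariate (SE 0.60, adjusted p = 0.838). In that fit the covariate runs with the genotype, so it cannot separate the 2. Csf3r, the receptor for granulocyte colony-stimulating factor, averaged 2.74 ± 1.14 FPKM in IL27ra KO and 0.856 ± 0.579 FPKM in WT (log2 difference 1.01, adjusted p = 0.0718). Il11ra1, the interleukin 11 receptor, and Cntfr, the ciliary neurotrophic factor receptor, had differences of 0.70 and 0.54 (adjusted p = 0.270 and 0.537). Lepr, the leptin receptor, was too low to test, at 0.87 to 1.42 FPKM in IL27ra KO and 0.31 to 1.01 FPKM in WT. Il23r, the partner of Il12rb1 in the interleukin 23 receptor, was at most 0.52 FPKM in IL27ra KO and listed at 0 in all 5 WT libraries.

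Of 11 JAK kinases and STAT factors, all tested, 1 fell and 10 did not pass, with a median log2 difference of -0.23. Over all genes tested 1.11% passed as lower and the median was 0.02, while the CD8 T cell identity genes had a median of -0.73. Stat3, which carries the signals of IL-6 and IL-27, had 23.3, 27.5, 28.5 and 29.6 FPKM in IL27ra KO replicates 1 to 4, against 56.5, 74.1, 58.0, 38.1 and 75.2 FPKM in WT replicates 1 to 5. Each IL27ra KO library was below each WT library, and the log2 difference was -1.09 (SE 0.22; limma, adjusted p = 0.0116). Leaving out IL27ra KO replicate 1 ended the call (-1.02, adjusted p = 0.0573), as did a scaling that set the CD8 T cell identity genes equal (-0.36, adjusted p = 0.317), under which the median of all genes was 0.64 instead of 0.02. Relative to that median the Stat3 difference was -0.9996 there and -1.11 on the deposited scale. Stat4, which carries the IL-12 signal, averaged 21.6 ± 7.91 FPKM in IL27ra KO and 33.3 ± 10.5 FPKM in WT (log2 difference -0.60, adjusted p = 0.355). Jak1, Jak2 and Tyk2, the kinases bound to these receptors, had differences of -0.06, -0.23 and -0.27 (adjusted p = 0.946, 0.679 and 0.626). Jak3 had a difference of -0.40, Stat5a of -0.33, Stat5b of -0.08, Stat2 of 0.46 and Stat6 of 0.23, with adjusted p of 0.350 to 0.929.

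Genes that respond to IL-27 or IL-6 in T cells did not move 1 way. Of 13 listed, 12 were tested, 1 rose, 1 fell and 10 did not pass, with a median log2 difference of -0.06. Over all genes tested 4.24% passed. Prdm1, which encodes the transcriptional repressor Blimp-1, had 2.21, 3.64, 4.50 and 3.86 FPKM in IL27ra KO replicates 1 to 4, against 10.1, 11.1, 10.5, 4.97 and 16.4 FPKM in WT replicates 1 to 5 (log2 difference -1.30, SE 0.28; limma, adjusted p = 0.0159). Leaving out IL27ra KO replicate 1 ended this call as well (adjusted p = 0.0710), as did the identity scaling (-0.67, adjusted p = 0.125). Relative to the median of all genes the difference was -1.31 there and -1.32 on the deposited scale. With 1 factor a library these values must lie close, so they do not restore the call. Maf, the transcription factor c-MAF, which macrophages also make, had 5.64, 4.68, 9.12 and 1.98 FPKM in IL27ra KO replicates 1 to 4, against 1.11, 0.97, 0.94, 0.71 and 1.34 FPKM in WT replicates 1 to 5 (log2 difference 1.54, SE 0.29; limma, adjusted p = 0.00815). Its lowest IL27ra KO value was in replicate 4, which had the lowest macrophage level of that group, and macrophage RNA and genotype cannot be told apart for Maf either. Groups of 2 genes that did not pass, the feedback inhibitor Socs3 and the NF-κB regulator Bcl3, did not overlap either, with 52.3 to 66.9 FPKM of Socs3 and 5.33 to 5.79 FPKM of Bcl3 in IL27ra KO and 15.5 to 46.7 and 1.39 to 4.89 FPKM in WT (limma, adjusted p = 0.1002 and 0.131). Over all genes tested 4.26% were higher in IL27ra KO without overlap. Cish, another feedback inhibitor, was nearer to the threshold in the other direction, with 13.8 ± 5.396 FPKM in IL27ra KO (SD, n = 4) and 31.1 ± 10.9 FPKM in WT (SD, n = 5), overlapping groups and a log2 difference of -1.11 (limma, adjusted p = 0.0573). Of 4 genes that respond to IL-12, none passed (limma; Ifng, Il18r1, Il18rap and Tbx21, adjusted p = 0.325 to 0.803), and their median log2 difference was -0.70. The median of the CD8 T cell identity genes, -0.73, was about the same. With the macrophage level as a covariate none of the 5 pathway genes that passed did so (limma; Osm 0.83, Lifr -0.32, Maf 0.44, Stat3 -1.32 and Prdm1 -1.45, adjusted p = 0.330 to 0.838), in the fit where 7 genes passed in all.

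**Figure D5:**
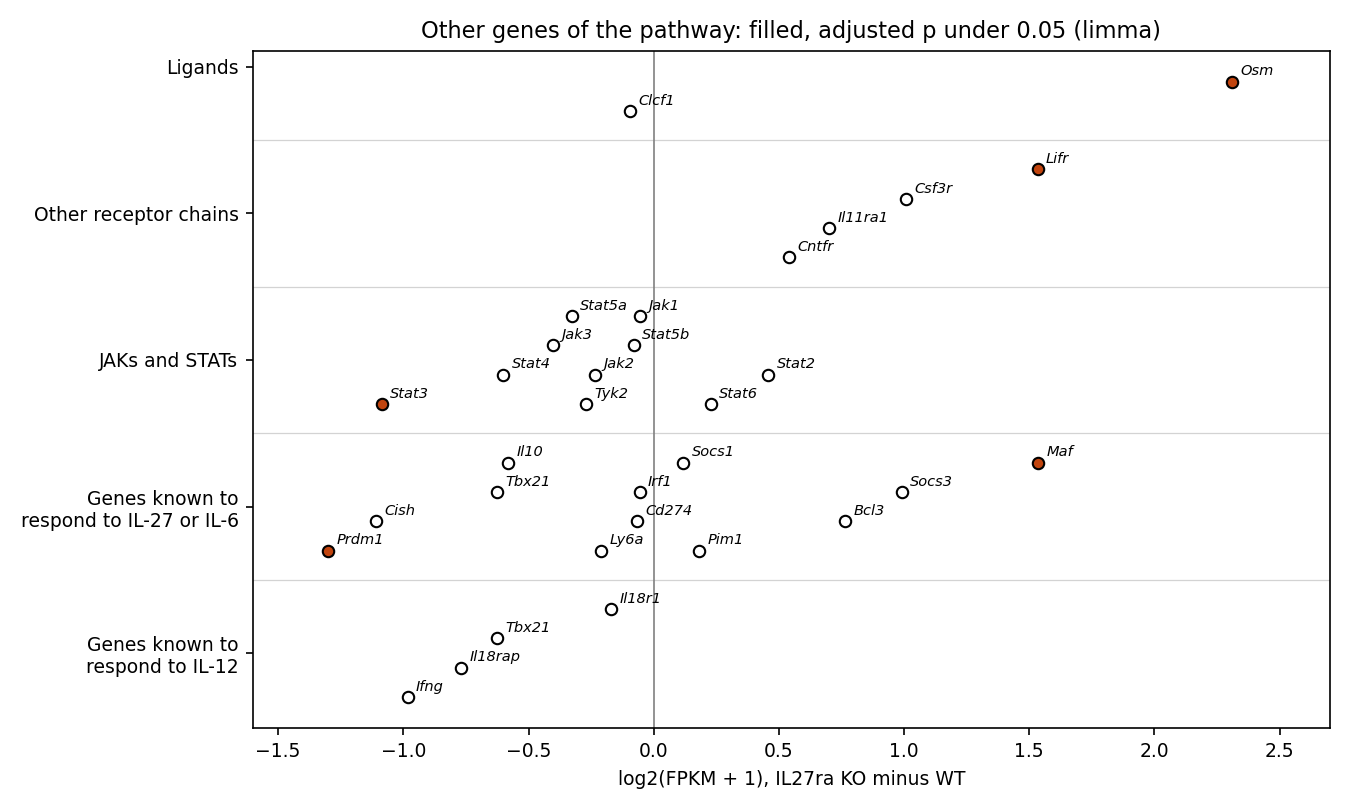
Log2(FPKM + 1) difference, IL27ra KO minus WT (horizontal axis), of tested genes of the 5 pathway lists (rows, with points staggered for legibility), filled where the limma adjusted p was under 0.05. The filled points are Osm (2.31), Lifr (1.53) and Maf (1.54) to the right and Stat3 (-1.09) and Prdm1 (-1.30) to the left, and Tbx21 stands in 2 lists.

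The genes whose log2 profile over the 9 libraries was most like that of a receptor chain were ranked by Pearson's r among 10373 tested genes, as a description. For Il6ra these were Abca1, a cholesterol exporter (r = 0.98, Spearman's rho = 0.95), Atp2b1, a calcium pump of the plasma membrane (r = 0.96), and Klf2, a transcription factor of resting and recirculating T cells (r = 0.95). Abca1 and Klf2 also rose in IL27ra KO, with log2 differences of 1.36 and 1.17 (limma, adjusted p = 0.00332 and 0.00768), and Atp2b1 had a difference of 0.41 (adjusted p = 0.284). For Il6st they were Kbtbd11, Spata5l1 and S1pr1, the sphingosine 1-phosphate receptor through which T cells leave tissues (r = 0.98, 0.98 and 0.97). For Il27ra they were the kinase Cdk17, the lipid phosphatase Lpin1 and the DNA repair gene Rad54l (r = 0.96, 0.95 and 0.94), none of which passed (adjusted p = 0.0823 to 0.245). For Il12rb2 they were Cd226, an activating receptor, Itgal, an integrin chain of T cells, and Tbc1d2b (r = 0.93 for each). For Il12rb1 they were Eif3j2, F8a and Ptpn22, a phosphatase of T cell receptor signalling (r = 0.96, 0.93 and 0.92). For Ebi3, which had few fragments, they were Cmpk2, I830012O16Rik and Fam20b (r = 0.93, 0.92 and 0.91). The 9 libraries of each profile fall into 2 genotypes and share their depth and their content of other cells.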

How the data were processed

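RNA was measured in 9 libraries of CD8+ T cells from B16F10 tumours, 4 IL27ra KO and 5 WT, grouped by the titles. Per the labels' protocols, lysates were cleaned on SPRI beads and libraries made by an adaptation of SMART-Seq 2, which copies full-length polyadenylated RNA and has no molecular identifiers. Per the labels, the authors deposited FPKM per gene, estimated by RSEM and scaled by TMM. The submitters' processing notes name TopHat, RSEM, DESeq and build mm9 without versions or roles. RSEM divides reads that match several transcripts, and TMM takes most genes as equal between libraries. FPKM are not counts, so no count test was used.

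Here log2(FPKM + 1) was compared as IL27ra KO minus WT with limma 3.58.1 in R 4.3.3 (lmFit, eBayes with a trend) over the 10374 genes that averaged 1 FPKM or more, Benjamini-Hochberg adjusted, threshold 0.05. All 6 genes passed the filter. The permutation test is two-sided and exact over 126 splits. The members and lists were chosen with earlier results of these data known, and list counts are descriptions. The fit was tested on simulated data. Fragments were estimated from the spacing of low FPKM in genes with 1 GENCODE M21 transcript, where 60.5% to 66.0% of low values lay within 0.1 of a whole fragment. These are estimates, since mm9 was the authors' build, no counts were used and the library totals carry the TMM scaling. Named genes were the 6 members, pathway-list genes that passed or were expressed, JAKs and STATs, and the 3 genes most like each member. Socs3, Bcl3, Cish, Il27, Il6, Il12a, Il23r, Trem2 and the dendritic cell, CD4 and regulatory T cell and melanoma genes were named after their values were seen. Some list genes are not reported here. Alternatives were pseudocounts of 0.1 and 5, no filter or one at 5 FPKM, quantile, total (without the ribosomal precursor Rn45s) and CD8 T cell identity scaling, the replicate number as a block, the macrophage level as a covariate, library weights, and each library left out.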

Additional observations from a re-analysis of the deposited data

Results flagged for a closer look

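2 values stood apart from the others of their group, among 18 groups of values examined, where chance gives about 1 in 20. Il12rb2 had 23.1 FPKM in IL27ra KO replicate 4, against 5.66 to 6.06 FPKM in the other 3 IL27ra KO libraries, a gap of 0.977 of the group's range. The same library had the highest CD8 T cell identity level and the lowest macrophage level of its group (6.38 and 4.16), and their part in the value was not tested. Il6st had 7.32 FPKM in IL27ra KO replicate 1, against 10.6 to 11.1 FPKM in the other 3, a gap of 0.861 of the range, and that library had the lowest CD8 T cell identity level (5.05).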

How the results depend on the processing

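Il6ra was higher in IL27ra KO under all 20 alternatives and passed in all but 1, the macrophage covariate (1.96, limma adjusted p = 0.184). Ebi3 did not pass in any of its fits, and it was not tested at a filter of 5 FPKM or without IL27ra KO replicate 1 or 3. Il12rb1 was not tested at that filter either. Il27ra was -1.42 with library weights and -1.53 without both the library labelled WT replicate 2 and IL27ra KO replicate 4 (a choice made after the data were seen), and passed in both (adjusted p = 0.00118 and 0.00121). The weights were lowest for the library labelled WT replicate 2 (0.223) and ran from 0.568 to 2.29 in the others. Il27ra was 0.57 with the macrophage covariate (SE 0.60, adjusted p = 0.692), which runs with the genotype. Il12rb1 passed with the weights (-0.94, adjusted p = 0.0329) and without both libraries (-1.06, adjusted p = 0.0237), and was -0.15 with the covariate and -0.22 on the identity scaling (adjusted p = 0.929 and 0.553). Il6st was 1.35 with the covariate (adjusted p = 0.385). Il12rb2 was -0.80 without both libraries (adjusted p = 0.0335), 0.42 on scaling to CD8 T cell identity genes and 1.41 with the macrophage covariate (SE 0.66, adjusted p = 0.416). Il6st was -0.077 without both libraries and -0.026 without the library labelled WT replicate 2. Lifr was -0.32 with the covariate (SE 0.60). The identity scaling moved the median of all genes from 0.02 to 0.64, and relative to that median Il12rb2 was at -0.22, Il27ra at -1.10, Il12rb1 at -0.86 and Il6ra at 1.35. Because the scaling multiplies each library by 1 factor, these must lie near the deposited differences and are no separate support. With 1 library left out, the differences ran from -1.42 to -0.88 for Il27ra, -0.026 to 0.38 for Il6st, 1.23 to 1.49 for Il6ra, 0.39 to 0.84 for Ebi3, -0.99 to -0.59 for Il12rb1 and -0.68 to -0.06 for Il12rb2. The log2 ratio difference of Il6ra over Il6st was 0.77 with a pseudocount of 5. The 440 genes changed became 219 at the 5 FPKM filter, 1347 (1295 higher and 52 lower) on the identity scaling, 7 with the macrophage covariate (1267 at an unadjusted p under 0.05), 974 with weights, 894 without both libraries, and 227 to 639 with 1 library left out, lowest without IL27ra KO replicate 3 and highest without IL27ra KO replicate 4. The cause of these changes was not tested. The titles do not say whether the replicate numbers pair the samples. Same-numbered libraries had deviations from their group means correlated at 0.00, -0.01, -0.07 and -0.15. Other content shared by libraries also enters these correlations, so they cannot decide whether same-numbered libraries shared a batch. With the replicate block 273 genes passed, Il6ra was 1.23 (adjusted p = 0.0383), and the Lifr, Prdm1 and Stat3 calls were lost (adjusted p = 0.0551, 0.0571 and 0.0794). Depth limits Ebi3, at 0 to 15 estimated fragments a library.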
